A study of Mus musculus with 3 samples.

Results

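The CELF1 clusters of 10 genes that mark vascular endothelium were examined in heart ventricle, muscle and C2C12 myoblasts. The genes were Flt1, Kdr, Erg, Ptprb, Pecam1, Tek, Tie1, Cdh5, Eng and Egfl7, and every cluster that carried the Entrez identifier of 1 of them was taken. They held 101 of the 72222 clusters of the series, 78 in heart, 23 in muscle and 0 in C2C12, and 9 of the 10 genes held at least 1. CELF1, also called CUGBP1, is an RNA-binding protein that acts on splicing in the nucleus and on mRNA decay and translation in the cytoplasm. Its sites were mapped by CLIP-seq, in which UV light fixes a protein to the RNA it touches before the protein is immunoprecipitated and the attached RNA is sequenced, and a cluster is a stretch of a gene with more reads than its expression and length would place there by chance. The heart (ventricle) and muscle libraries came from 16-week-old mice of the C57/BL6 strain background, and the third from cultured C2C12, a mouse line of muscle precursor cells that holds no vessels. The same monoclonal antibody to endogenous CELF1, clone 3B1, was used throughout, and there was 1 library per source, so no value below has a replicate. The sources used here do not say which muscle was taken or how many mice were pooled.

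Endothelial cells line every blood vessel, and the capillaries of heart and skeletal muscle run alongside each muscle cell. Growth and survival of these cells depend on the VEGF receptors and the Tie receptors, and their contacts are held by adhesion proteins such as VE-cadherin. A whole-tissue library therefore holds RNA from endothelial cells beside that of muscle cells, whereas a pure myoblast culture does not. CELF proteins are known to bind RNA rich in UGU and UG repeats.

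The RNA under the clusters is shown first, since UGU was held by all but 2 of the 101. Each line gives 30 bases of 1 cluster, or of the stretch that heart and muscle clusters share, taken where UGU is densest. The sequences were read 5' to 3' from the mm9 genome on the strand of the gene, with every UGU in capitals. The first set holds stretches met in both heart and muscle, from a 3' UTR or an intron.
Flt1 3' UTR of the full-length transcript (chr5:148375652-148375681, minus strand): UGUuuuuUGUuuUGUuUGUUGUugcUGUuu
Flt1 3' UTR of the short transcript (chr5:148450460-148450489, minus strand): UGUuucuuuUGUGUGUcugcucuucUGUcu
Flt1 intron 1 (chr5:148525702-148525731, minus strand): UGUGUGUaUGUGUuUGUGUuUGUGUUGUgc
Ptprb intron 2 (chr10:115744095-115744124, plus strand): UGUuuuaUGUGUGUGUGUgcuuuuUGUggc
Pecam1 3' UTR (chr11:106516037-106516066, minus strand): UGUuuUGUuuUGUuucUGUUGUucucuucu

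The second set holds clusters of 1 tissue that the results turn on, from the Erg introns, the 3' end of the short Flt1 transcript, Kdr, and the genes met only in heart.
Erg intron 3, heart (chr16:95636966-95636995, minus strand): gagUGUGUGUGUGUGUuucUGUGUGUGUGU
Erg intron 3, heart, second example (chr16:95667872-95667901, minus strand): cugacucugacucucUGUcUGUcUGUcUGU
Erg intron 3, muscle (chr16:95642005-95642034, minus strand): accccuuUGUacccUGUauaccucugcuuu
Flt1 short-transcript 3' UTR, muscle (chr5:148448171-148448200, minus strand): gUGUGUGUGUGUGUGUGUGUGUGUGUGUGU
Flt1 short-transcript 3' UTR near its end, muscle (chr5:148446792-148446821, minus strand): aauUGUauUGUaccauauuUGUaUGUuuua
Kdr 3' UTR, heart (chr5:76330066-76330095, minus strand): ugcuuUGUGUGUugaggaugggugagaUGU
Tek 3' UTR at its end, heart (chr4:94541593-94541622, plus strand): uuccucuUGUaggugaauaaaUGUcuUGUc
Tie1 intron 9, heart (chr4:118154557-118154586, minus strand): ucuuuuuUGUugcuaucuucuucuucccaa
Cdh5 coding exon 9, heart (chr8:106661761-106661790, plus strand): aaagUGUGUgagaaugcugcccagggcaag
Eng intron 2, heart (chr2:32518764-32518793, plus strand): aguuaaauaggacacucUGUGUGUGUGUGU

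The last set holds the 2 exceptions, the only member clusters with no UGU at all.
Flt1 3' UTR, muscle (chr5:148375698-148375727, minus strand): cuccacaggagccagcugcuuuucgugacc
Pecam1 3' UTR, heart (chr11:106515809-106515838, minus strand): uuccuuuccguuccaugccgaaggcccaaa

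All 3 libraries differed in number of clusters, with 42263 in heart, 24844 in muscle and 5115 in C2C12. The numbers for the member genes are therefore given beside their share of the library. Cluster number did not follow read depth. After identical reads were collapsed, the paper reports about as many uniquely mapped reads for C2C12 as for heart, and fewer for muscle. The 10 genes took 0.185% of the heart clusters (exact Clopper-Pearson 95% interval 0.146 to 0.230%) and 0.0926% of the muscle clusters (0.0587 to 0.139%). C2C12 had 0 of 5115, with an upper bound of 0.0721%. At the heart share, 5115 clusters would hold 9.44 in these genes, and at the muscle share 4.74. These intervals cover counting error only, and clusters are not independent molecules. In a library of whole tissue, fewer endothelial cells and less RNA of these genes per cell cannot be told apart, and a gene with no cluster may still be bound. Of the 9 genes with a cluster in any library, 9 had one in heart, 5 in muscle and 0 in C2C12. Of the 8037 genes with a cluster in any library, 85.3% had one in heart, 66.5% in muscle and 34.3% in C2C12. The cardiomyocyte list of 8 genes held 457 heart clusters, 18 in muscle and 4 in C2C12, or 1.08%, 0.0725% and 0.0782% of each library. Of the 457, 252 lay in Ryr2, 111 in Slc8a1 and 52 in Corin, whereas Tnni3 held 1 and Nppa none. The skeletal fibre list of 8 held 18, 106 and 0, or 0.0426%, 0.427% and 0%, and 49 of the 106 lay in Ryr1. The myoblast list of 8 held 14, 9 and 16, or 0.0331%, 0.0362% and 0.313% of each library. Of the 16 in C2C12, 11 lay in Ccnd1, a cell-cycle gene, and 2 in Myod1, and 4 of the 8 myoblast genes (Myf5, Pax7, Mki67 and Cdh15) had no cluster anywhere.

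**Figure D1:**
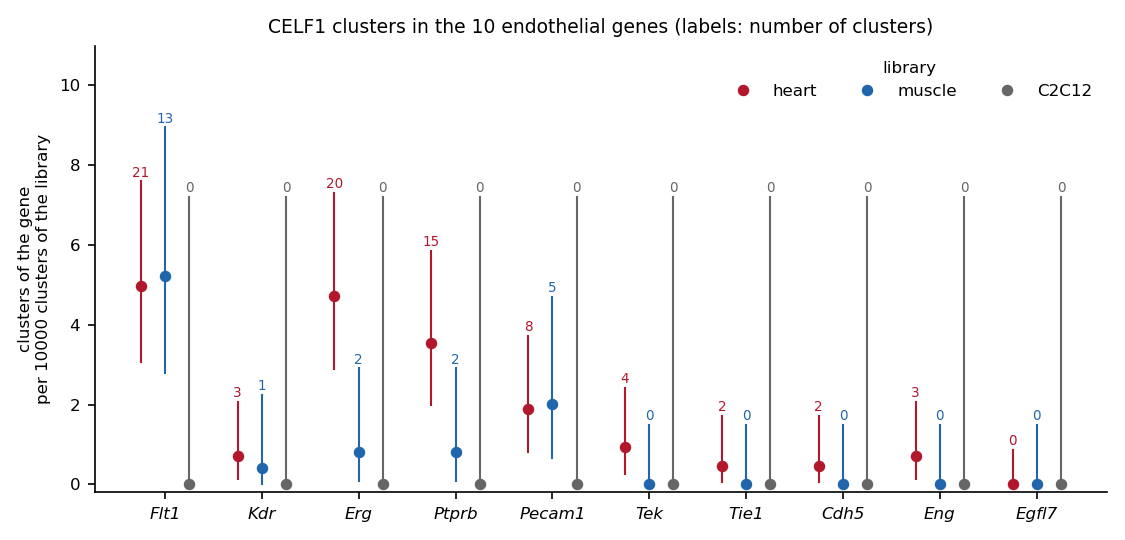
Number of clusters of each endothelial gene per 10000 clusters of the library, for heart, muscle and C2C12, with exact Clopper-Pearson 95% intervals (counting error only) and the number of clusters printed above each. Flt1 and Pecam1 lie at like shares in heart and muscle, Erg and Ptprb lie higher in heart without passing the adjusted test, and the wide C2C12 intervals above 0 reach 7.21 because that library has 5115 clusters.

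The VEGF receptors come first. Flt1 encodes VEGFR1, which binds VEGF-A tightly and signals weakly, and Kdr encodes VEGFR2, the main signalling receptor. Flt1 (Entrez 14254, chr5:148373180-148537587, minus strand, 30 exons) held 21 clusters in heart and 13 in muscle, more than any other member in both. Per 10000 clusters of the library this was 4.97 in heart and 5.23 in muscle. The odds ratio of heart against muscle was 0.950 (95% interval 0.454 to 2.06, two-sided Fisher's exact test, p = 0.861), so the share of Flt1 was not distinguishable between the tissues. Flt1 ranked 302nd of the 6857 genes with a heart cluster and 322nd of the 5341 with a muscle cluster. Kdr (Entrez 16542, chr5:76328852-76374483, minus strand) held 3 clusters in heart and 1 in muscle, with an odds ratio of 1.76 (0.142 to 92.6, p = 1 by the same exact test). Although Kdr is the nearest relative of Flt1 among the members, its heart clusters were fewer per length, 0.657 per 10 kb of gene against 1.28, with exact Poisson 95% intervals of 0.136 to 1.92 and 0.791 to 1.95 that overlap.

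Flt1 yields a full-length receptor and, as background, a soluble form that lacks the membrane anchor and the kinase and traps ligand outside the cell. The soluble form arises when the transcript ends inside an intron. In the annotation used, transcript Flt1-001 covers all 30 exons and Flt1-002 has 13, with a 3' UTR of 3974 nt that lies inside intron 13 of Flt1-001. The full-length 3' UTR of 2619 nt held 3 clusters in heart and 3 in muscle. The 3' UTR of Flt1-002 held 2 in heart and 3 in muscle. Because that region is intron for the full-length transcript, clusters there can come from the short mRNA or from unspliced RNA of the long one, which cannot be told apart by position. At least 1 site was met in both tissues at each 3' end. In the full-length 3' UTR a heart cluster of 121 nt (chr5:148375610-148375730) overlapped muscle clusters of 99 and 37 nt, near the stop codon and 2490 nt from the transcript end. In the 3' UTR of Flt1-002, a heart cluster of 107 nt (chr5:148450404-148450510) overlapped a muscle cluster of 66 nt, again near the stop codon, 3722 nt from the end. Muscle alone had a cluster 71 nt from the end of Flt1-002 and another 1451 nt from it, the latter with 17 UGU, the highest number in any member cluster. The remaining heart clusters in exons lay at 854 and 1199 nt from the full-length end, at 2736 nt from the end of Flt1-002, and in the last coding exon.

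**Figure D2:**
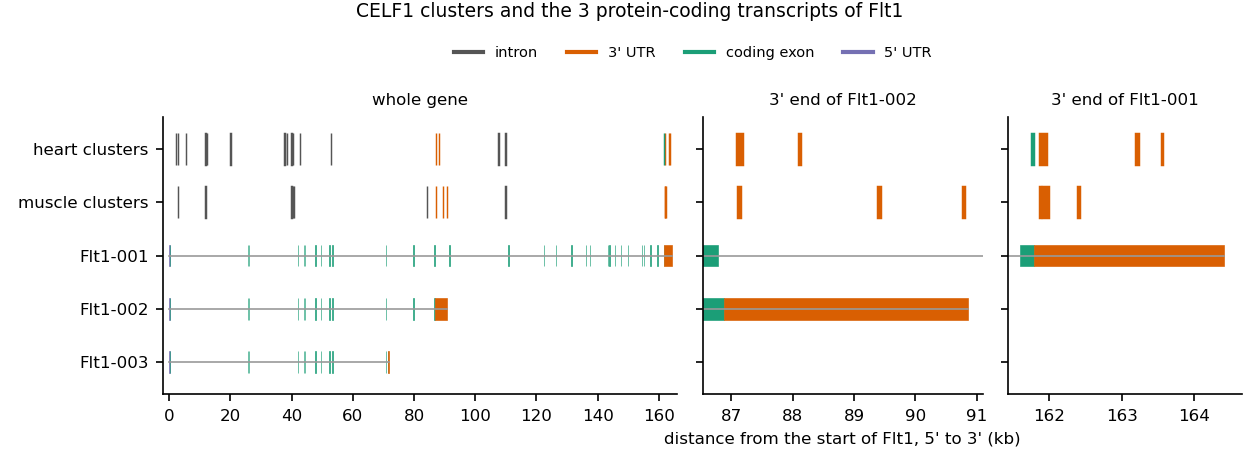
Clusters of heart and muscle along Flt1, as distance in kb from the gene start, over the 3 protein-coding transcripts, with the whole gene at left and the 3' ends of Flt1-002 and Flt1-001 enlarged. Boxes are exons and clusters drawn to scale and coloured by gene part, and both 3' UTRs hold a cluster of each tissue close to where the coding sequence ends.

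The other Flt1 clusters were intronic, 15 in heart and 7 in muscle. In heart 6 lay in intron 1 (25253 nt), 5 in intron 3 (15840 nt), 2 in intron 14 and 1 each in introns 4 and 9. In muscle 2 lay in intron 1, 3 in intron 3 and 1 each in introns 12 and 14. Of the 21 heart clusters 7 overlapped a muscle cluster, and of the 13 muscle clusters 8 overlapped a heart cluster. One of these pairs, in intron 1 (chr5:148525674-148525732), had midpoints 2 nt apart and held 11 UGU. In Kdr the heart clusters lay in the 3' UTR (1) and in intron 15 (2), the muscle cluster lay in intron 3 at 201 nt from an exon, and none were shared.

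Tek encodes the Tie2 receptor for angiopoietins, Tie1 its co-receptor, and Ptprb the phosphatase VE-PTP, which acts on Tie2 and VE-cadherin. Ptprb (Entrez 19263, chr10:115712579-115826594, plus strand) held 15 clusters in heart and 2 in muscle, or 3.55 and 0.805 per 10000 clusters. The odds ratio was 4.41 (1.03 to 39.7), with an unadjusted p of 0.0413 by Fisher's exact test and 0.589 after Benjamini-Hochberg adjustment across the 7625 genes tested, so Ptprb did not pass. All 17 clusters were intronic, and the 3' UTR of 5666 nt, the longest among the members, held none. In heart 6 lay in intron 30 (7855 nt), 5 in intron 2 (11432 nt), 2 in intron 16 and 1 each in introns 8 and 18. Both muscle clusters lay in intron 2 and both overlapped heart clusters, 1 of them with the same midpoint (chr10:115744095-115744131). Intron 30 was met in heart alone, and its clusters held 1 to 8 UGU, beside 6 to 7 in intron 2. Tek (Entrez 21687, chr4:94405980-94541667, plus strand) held 4 clusters in heart and 0 in muscle (exact p = 0.304). Of these 2 were intronic and 2 lay at the very 3' end, with midpoints 78 and 23 nt from the end of transcript Tek-002. Tie1 (Entrez 21846, chr4:118143796-118162666, minus strand) held 2 clusters in heart and 0 in muscle (exact p = 0.534), in introns 14 and 9, at 116 and 290 nt from the nearest exon. Those introns are 2127 and 1686 nt long. Any cluster in them had to lie within 2590 nt of an exon, the median for intronic heart clusters of the set.

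Among the junction and adhesion genes, Pecam1 (CD31) differed little between the tissues and Cdh5 was met in heart alone. Pecam1 (Entrez 18613, chr11:106515531-106611942, minus strand), an adhesion molecule shared with platelets and leukocytes, held 8 clusters in heart and 5 in muscle, or 1.89 and 2.01 per 10000. The odds ratio was 0.941 (0.271 to 3.65, exact p = 1). In heart 3 lay in the 3' UTR and 5 in introns, and in muscle 2 and 3. Of the 5 muscle clusters 4 overlapped a heart cluster, among them both in the 3' UTR, at 501 and 689 nt from the transcript end by the midpoints of the heart clusters. One intronic pair (chr11:106546715-106546722) shared 8 nt only, with midpoints 35 nt apart. Cdh5 (Entrez 12562, chr8:106625525-106668402, plus strand) encodes VE-cadherin, the adhesion protein of endothelial junctions. It held 2 clusters in heart, 1 in intron 7 and 1 in coding exon 9, and 0 in muscle (exact p = 0.534). Both had 2 UGU.

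Erg encodes an ETS transcription factor that maintains endothelial identity, and it had the largest odds ratio among the 5 members met in both tissues. Erg (Entrez 13876, chr16:95580776-95808200, minus strand) held 20 clusters in heart and 2 in muscle, or 4.73 and 0.805 per 10000 clusters. In number Erg was next to Flt1 in heart, ranking 340th of 6857 genes, but it ranked 2759th of 5341 in muscle. The odds ratio was 5.88 (1.43 to 51.9), with an unadjusted p of 0.00655 and an adjusted p of 0.197 over 7625 genes (Fisher's exact test, Benjamini-Hochberg), so Erg did not pass either. All 22 clusters were intronic. In heart 14 lay in intron 3 (114574 nt), 5 in intron 4 (19689 nt) and 1 in intron 11, and in muscle 1 lay in intron 3 and 1 in intron 4. No heart cluster of Erg overlapped a muscle cluster. The 3' UTR of 1640 nt held none.

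Eng encodes endoglin, a co-receptor for TGF-beta and BMP ligands, and Egfl7 a secreted protein of endothelial cells whose gene hosts miR-126. Eng (Entrez 13805, chr2:32502115-32538189, plus strand) held 3 clusters in heart and 0 in muscle (exact p = 0.301). They lay in the 5' UTR at 84 nt from the transcript start, in coding exon 1 and in intron 2, so Eng was the only member with a 5' UTR cluster. That cluster also overlapped another annotated gene of the same strand, and its reads cannot be split between them. Egfl7 (Entrez 353156, chr2:26435534-26448640, plus strand) held 0 clusters in every library. The gene is 13.1 kb long, and a count of 0 allows up to 2.81 clusters per 10 kb (exact Poisson 95% bound), above the density of every other member, so its absence was not distinguishable from theirs. Ordered by heart clusters per 10 kb of gene, Ptprb (1.32), Flt1 (1.28) and Tie1 (1.06) stood first, then Erg (0.879), Eng (0.832), Pecam1 (0.830) and Kdr (0.657), then Cdh5 (0.466) and Tek (0.295). The exact Poisson intervals of neighbours in this order overlapped. Those of the first and the last, Ptprb (0.736 to 2.17) and Tek (0.0803 to 0.755), overlapped too.

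Read across genes, 7 of the 9 members with a cluster in heart or muscle took a larger share of the heart clusters, against 53.7% of the 7625 genes tested. The median log2 ratio of shares, with a pseudocount of 0.5 clusters, was 1.56 for the members and -0.00977 for all genes. The member median was the value of Tie1 and Cdh5, with 2 heart clusters against 0, so the pseudocount set it, and with intronic clusters alone it was 0.38 (6 of 9 above 0, with Kdr below as well). No member was called at an adjusted p of 0.05, and 2 of 9 had an unadjusted p under 0.05. Over all genes tested, 566 of 7625 had an unadjusted p under 0.05, and 0.944% were called higher in heart and 0.852% higher in muscle. In heart against C2C12, 0 of 9 members were called and none had an unadjusted p under 0.05, the lowest being 0.159 for Flt1 and the lowest adjusted p 0.976. There 424 of 7390 genes had an unadjusted p under 0.05, and 0.176% were called higher in heart and 0.609% higher in C2C12. In muscle against C2C12, 0 of 5 members were called, with an unadjusted p of 0.144 for Flt1 and a lowest adjusted p of 0.753, where 0.146% of 6153 genes were called higher in muscle and 0.569% higher in C2C12. All of these are two-sided Fisher's exact tests of 1 library against another and say nothing of the spread between animals. The 3 comparisons share libraries.

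By gene part the member clusters of heart were intronic more often than all heart clusters, with Erg and Ptprb wholly intronic. In heart 63 of the 78 clusters were intronic (80.8%, Clopper-Pearson 70.3 to 88.8%), against 58.6% of all heart clusters, and 11 lay in 3' UTRs (14.1%, 7.26 to 23.8%), against 32.9%. A further 3 lay in coding exons and 1 in a 5' UTR. Genes differed, with 20 of 20 heart clusters intronic in Erg and 15 of 15 in Ptprb, but 15 of 21 in Flt1 and 5 of 8 in Pecam1. The intronic share of heart is thus not a trait of every member. In muscle 15 of 23 were intronic (65.2%, 42.7 to 83.6%), against 43.2%, and 8 lay in 3' UTRs (34.8%, 16.4 to 57.3%), against 50.0%. Both muscle intervals include the value for all clusters. Of the 8 muscle clusters in 3' UTRs 6 belonged to Flt1, and without Flt1 they were 2 of 10. Where a position that is intron in any transcript was counted as intron, which moves the clusters of Flt1-002, the muscle shares were 78.3% in introns and 21.7% in 3' UTRs, and the heart shares 83.3% and 11.5%. The member genes are long, with a median of 71.0 kb against 34.3 kb for the 7970 genes with a cluster and a protein-coding transcript, but introns make up a like share of intron plus 3' UTR length, 97.3% against 97.0%. Per 100 kb of intron the members held 8.05 heart clusters against 4.94 for all these genes, and 1.92 muscle clusters against 2.14. Per kb of 3' UTR they held 0.514 heart clusters against 0.905, and 0.374 muscle clusters against 0.808. Pooled over the members, the higher density in introns was thus seen in heart and not in muscle. The lower density in 3' UTRs was seen in both. Members differed. In heart introns Tek, Cdh5, Eng and Egfl7 lay below the value for all these genes and the others above. In muscle introns Flt1, Kdr, Ptprb and Pecam1 lay above it and the others below. The 3' UTRs of Pecam1 (918 nt, 3 heart and 2 muscle clusters) and Flt1-001 (2619 nt, 3 and 3) lay above in both. That of Tek (944 nt, 2 in heart) did so in heart alone. Those of Kdr and Flt1-002 lay below, and those of Ptprb, Erg, Tie1, Cdh5, Eng and Egfl7 held none. These densities are descriptions with no test. Within 300 nt of an exon lay 5 of the 63 intronic heart clusters (7.94%, Clopper-Pearson 2.63 to 17.6%), against 14.3% of all intronic heart clusters. In muscle it was 2 of the 15 (13.3%, 1.66 to 40.5%), against 17.0%. Both intervals include the value for all intronic clusters.

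**Figure D3:**
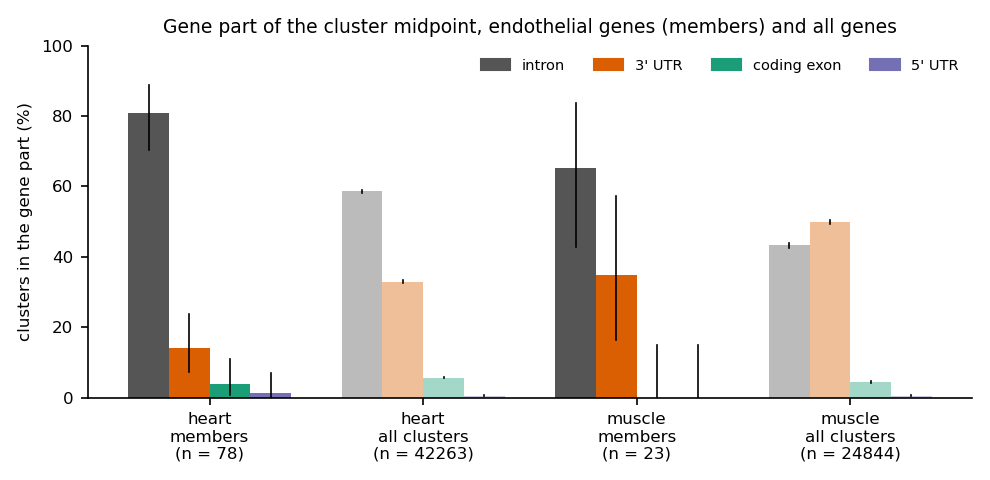
Percentage of clusters whose midpoint lies in an intron, 3' UTR, coding exon or 5' UTR, for the endothelial genes (dark bars) and for all clusters of the library (pale bars), with exact Clopper-Pearson 95% intervals. The intron bars of the members stand at 80.8% in heart and 65.2% in muscle, beside 58.6% and 43.2% for all clusters, and the muscle interval includes 43.2%.

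Along the genes, the stretch from the gene start to the first cluster of heart or muscle varied. It was 79.1% of the gene in Cdh5, 57.5% in Erg, 42.9% in Tie1, 39.0% in Pecam1, 34.1% in Tek, 27.7% in Ptprb and 20.6% in Kdr, and 1.32% in Flt1 and 0.233% in Eng. Evenness along the genes was not tested. Cdh5 and Tie1 held 2 clusters each, Eng 3, and Kdr and Tek 4 each, beside 34 in Flt1. With few clusters the first can lie far along a gene by number alone. Erg, Ptprb and Pecam1 have further protein-coding starts between the gene start and their first cluster, and those named here were picked after the cluster positions were seen. In Erg, 0 of the 22 clusters lay in the first 127245 nt, which is 56.0% of the gene and ends at the start of transcript Erg-001. In Ptprb, 0 of 17 lay in the 25851 nt upstream of the start of Ptprb-202 (22.7% of the gene), and in Pecam1 0 of 13 lay in the 35234 nt upstream of the start of Pecam1-001 (36.5%). The first cluster followed the nearest annotated start upstream of it by 3588 nt in Erg, 5683 nt in Ptprb, 1954 nt in Pecam1, 2148 nt in Flt1 and 84 nt in Eng, but by 46107 nt in Tek, 33907 nt in Cdh5, 9366 nt in Kdr and 8096 nt in Tie1. In Flt1, whose 3 protein-coding transcripts start within 23 nt of each other, the first cluster lay 2171 nt from the start.

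**Figure D4:**
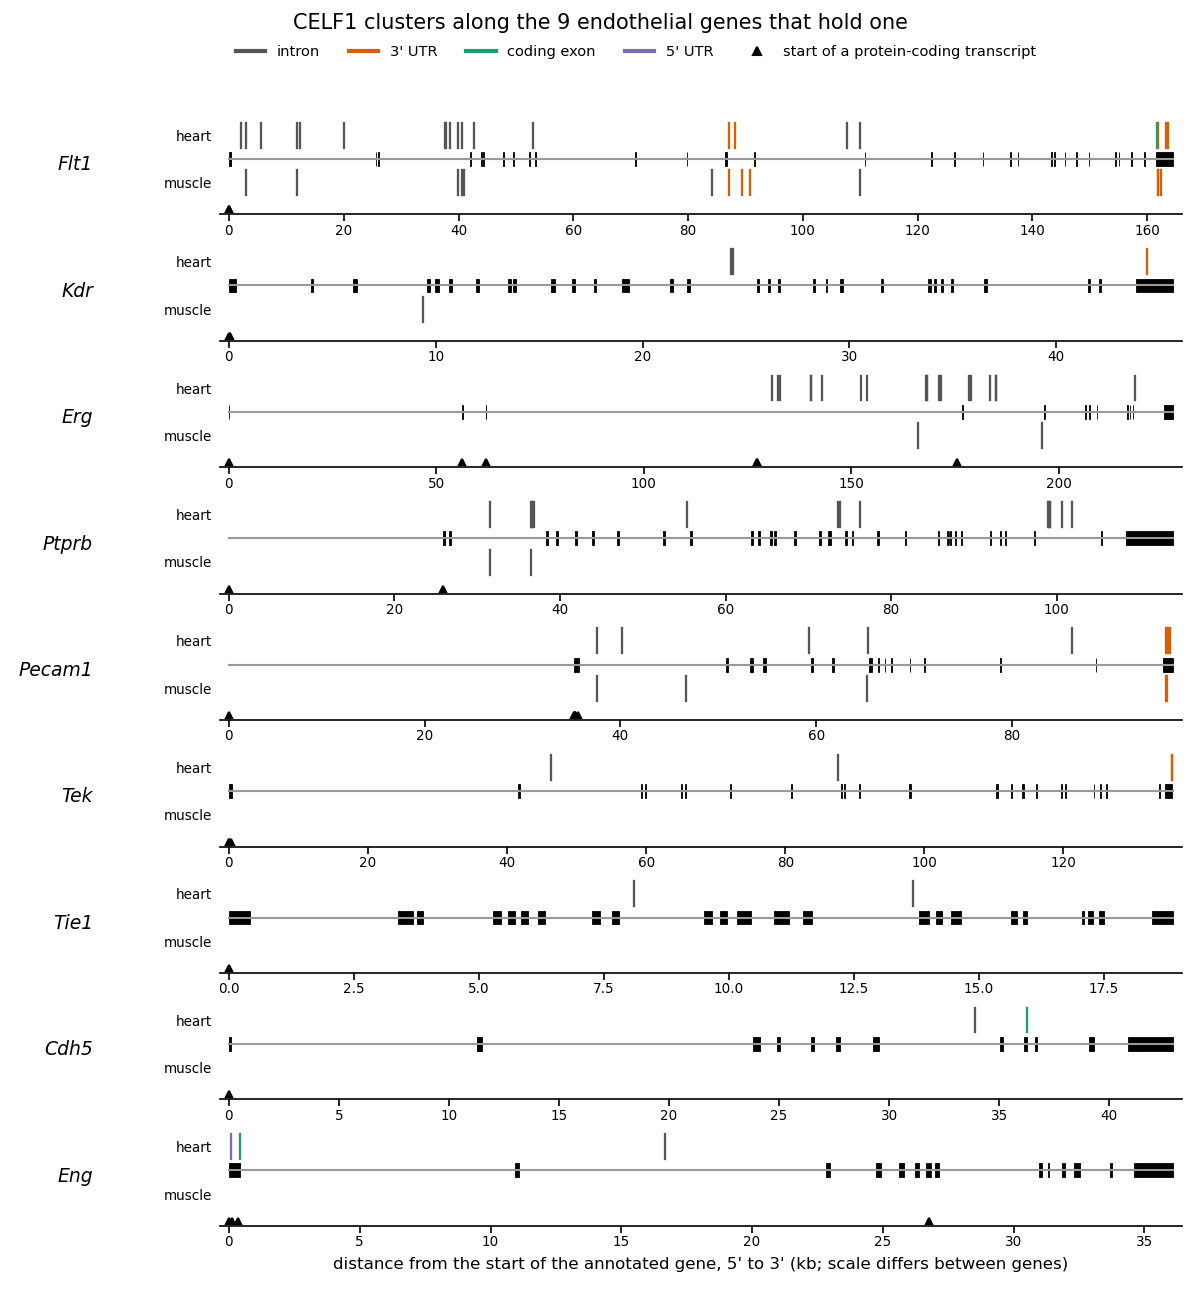
Clusters along the 9 endothelial genes that hold one, as distance in kb from the gene start, with heart above and muscle below the gene line, coloured by gene part. Black boxes are exons of the reference transcript and triangles are starts of protein-coding transcripts. Before the first cluster lie 79.1% of Cdh5, 57.5% of Erg, 42.9% of Tie1, 39.0% of Pecam1, 34.1% of Tek, 27.7% of Ptprb and 20.6% of Kdr, whereas Flt1 is met from its first intron to its last exon. Cdh5 and Tie1 hold only 2 clusters each.

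Positions met in both tissues came from Flt1, Ptprb and Pecam1, with 8, 2 and 4 pairs of overlapping clusters. The midpoints of the 14 pairs were 0 to 42 nt apart, with a median of 8.5 nt. Of the 23 muscle clusters 14 overlapped a heart cluster (60.9%, Clopper-Pearson 38.5 to 80.3%), against 52.8% of all muscle clusters. Of the 78 heart clusters 13 overlapped a muscle cluster (16.7%, 9.18 to 26.8%), against 30.9% of all heart clusters. Split by part, 9 of 63 intronic heart clusters did so (14.3%, against 19.0% of all) and 4 of 11 in 3' UTRs (36.4%, 10.9 to 69.2%, against 53.8%). Without Flt1 the share in heart was 10.5% (6 of 57). The shares of heart clusters are limited by how many muscle clusters there are to meet. Members had 23 in muscle beside 78 in heart, against 24844 beside 42263 for all clusters. Tek, Tie1, Cdh5 and Eng had no muscle cluster to overlap, and Erg had 2, both apart from its 20 heart clusters. The lower share in heart is therefore no measure of differing positions.

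UGU was nearly universal in the clusters of both tissues. It was found in 77 of 78 heart clusters (98.7%) and 22 of 23 muscle clusters (95.7%), beside 98.3% and 98.4% of all clusters of these libraries. In windows of the same width anywhere in the same genes, 65.7% (heart) and 62.3% (muscle) held UGU on the RNA strand. The median was 5 UGU per cluster in heart and 6 in muscle, with 4 over all clusters of each. The 7-base repeat UGUGUGU was held by 20 heart clusters (25.6%, Clopper-Pearson 16.4 to 36.8%), against 22.4% of all heart clusters and 3.03% of same-gene windows, and by 7 muscle clusters (30.4%, 13.2 to 52.9%), against 17.0% and 2.81%. Within the set, Erg carried 10 of the 20 in heart, Ptprb 5 and Flt1 3, and Pecam1, Tek, Tie1 and Cdh5 carried none. The median number of UGU was 9.5 in the heart clusters of Erg, 6 in Ptprb, 5 in Flt1 and 4 in Pecam1, whereas the 2 muscle clusters of Erg held 2 and 3. Both clusters without UGU lay in 3' UTRs. The one in Flt1 was a muscle cluster of 37 nt that lay inside a heart cluster of 121 nt with 8 UGU, their midpoints 42 nt apart. The one in Pecam1 was a heart cluster of 39 nt, 291 nt from the transcript end.

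**Figure D5:**
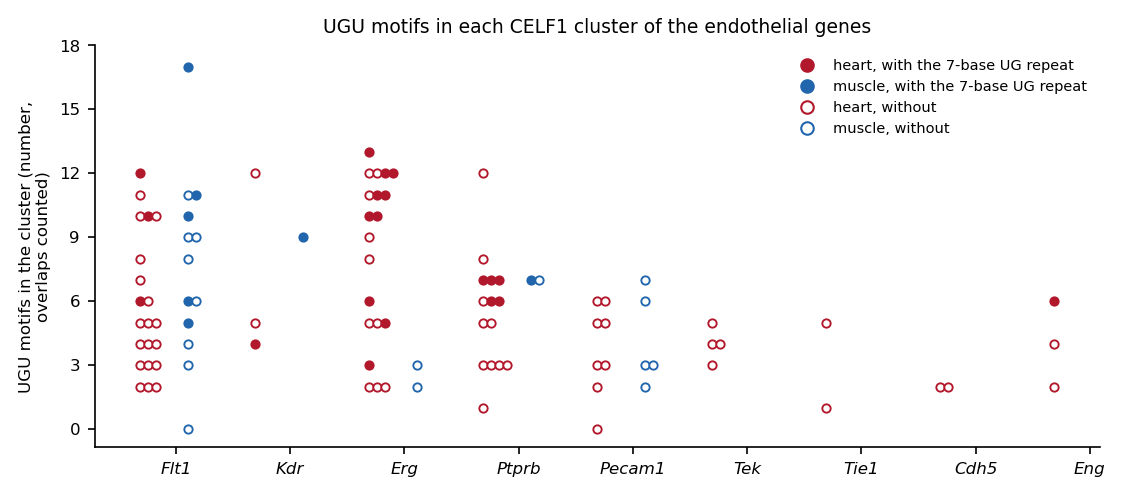
Number of UGU motifs, overlaps counted, in each cluster of the endothelial genes for heart (red) and muscle (blue), with filled circles for clusters that hold the 7-base UG repeat. The heart clusters of Erg reach 13 and the highest value, 17, is a muscle cluster of Flt1, and the 2 clusters at 0 belong to Flt1 and Pecam1.

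Other genes of the same pathways gave the setting. In 6 further lists of 69 genes of endothelial cells and of the ligands that act on them, 43 held a cluster, with 326 in heart, 111 in muscle and 33 in C2C12, or 0.771%, 0.447% and 0.645% of each library, and 41, 31 and 15 genes were met in each. Of the 43 genes, 15 were thus met in C2C12, where no member was, beside 34.3% of all genes with a cluster. Among VEGF ligands and co-receptors, Nrp1, which binds VEGF-A beside Kdr, held 27, 10 and 1 clusters in heart, muscle and C2C12, Vegfa itself 7, 7 and 3, and Nrp2 6, 0 and 4. Angpt1, the activating ligand of Tek, held 12, 1 and 8 (heart against muscle, exact p = 0.0399, adjusted p = 0.585), whereas Tek held 4, 0 and 0. The 0 of Tek in C2C12 allows up to 7.21 per 10000 clusters, above its 0.946 in heart. No contrast of ligand and receptor can therefore be drawn in the myoblast line. Of the junction list, Jam2 held 6, 0 and 1, Podxl 6, 0 and 0, and Mcam 2, 2 and 0. Of the transcription factors, Mecom held 21, 7 and 0, Fli1, the nearest relative of Erg, 9, 4 and 0, and Ets2 7, 3 and 2. The odds ratio of Fli1 was 1.32 (heart against muscle, exact p = 0.778), beside 5.88 for Erg, and the difference between the genes was not tested. Of the BMP, TGF-beta and Notch list, Heg1, a junctional receptor, held 24, 5 and 0 (exact p = 0.0328, adjusted p = 0.502), Bmpr2 13, 6 and 1, and Smad6 8, 2 and 1.

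Of the 43 genes tested in heart against muscle, 1 was called higher in heart and 0 in muscle, beside 0.944% and 0.852% of all genes tested. Ptprm, a receptor phosphatase of cell contacts that other cell types also express, held 89, 19 and 4 clusters, with an odds ratio of 2.76 (Fisher's exact test, p = 1.40e-05, Benjamini-Hochberg adjusted p = 0.00175). In the same list Ece1 held 9, 7 and 1 and Adgrf5 11, 5 and 0. Clusters were also met in genes listed as markers of other cells of the tissue. Of the list of 9 smooth muscle and pericyte genes, 7 were met in heart, 6 in muscle and 2 in C2C12. They held 56, 27 and 4 clusters, or 0.133%, 0.109% and 0.0782% of each library. Abcc9 alone held 25, 14 and 0 of these, whereas Pdgfrb held 2, 0 and 0, and Kcnj8 and Tagln had none in any library. The totals of this list thus rest in large part on Abcc9 and do not show that its cell types were met. The 5 endocardium markers took 17, 6 and 1 clusters, of which Gata4 held 11, 0 and 1 and Nfatc1 held 1, 6 and 0. The 4 lymphatic markers took 7, 0 and 0, of which Prox1 held 6, 0 and 0. Plvap, Lyve1 and Pdpn had no cluster in any library, so these totals rest on few genes and do not show that either cell type was met. Macrophage and blood cell markers took 7, 3 and 0 over 8 genes, and fibroblast markers 5, 4 and 2 over 8. The part of these cell types in the member values was not tested.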

How the data were processed

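CELF1 CLIP clusters were analysed from 1 library each of heart ventricle, muscle and C2C12. According to the labels and the methods of the study, reads were collapsed by a random barcode, mapped to mm9 with Bowtie and TopHat (no versions are given in the sources used here), with unique matches retained. Genes were delimited from RefSeq, Ensembl and UCSC tables, and windows with more reads than a Poisson model of expression and pre-mRNA length allows were joined into clusters. The deposited files hold positions, strand and Entrez identifier of each cluster, called per library, and a further column, left aside here, that is 1e-06 in every line. No read number comes with a cluster, so its depth is unknown, and weakly expressed genes can fall short of a cluster. Deposited starts were taken as counted from 0 and are printed from 1.

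The genome was NCBIM37 (the assembly of mm9) with GENCODE vM1. Of 8037 identifiers, 7981 (99.3%) matched an annotated gene, by symbol or synonym (RefSeq names for GRCm38, used for names alone). The midpoint of a cluster set its part, in the order 3' UTR, coding exon, 5' UTR, intron, over protein-coding transcripts. Intron numbers follow the protein-coding transcript with most exonic sequence. Libraries shared a position where clusters overlapped by 1 bp on the same strand. Per gene, cluster numbers against the rest of the library were compared with two-sided Fisher's exact tests (scipy 1.17.1), adjusted over all genes with a cluster in either library. The procedure was tested on simulated data. Shares have Clopper-Pearson and densities exact Poisson 95% intervals, for counting error only. UGU was counted on the RNA strand with pysam 0.24.0, overlaps included.

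The member genes and the other lists were chosen with earlier results of these data known. All members are named, and of the other lists the genes with most clusters over the 3 libraries, up to 3 per list, and any called in heart against muscle.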

Additional observations from a re-analysis of the deposited data

How the results depend on the processing

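Of 95 alternative values, 78 kept their side of the threshold or moved by no more than 1.5 times or their interval, and 17 moved further. Without Flt1, the member with most clusters, the muscle number was 10 (from 23) and the share of muscle clusters with UGU 100%. No member was called under any alternative run. The odds ratio of Erg in heart against muscle ranged from 4.34 (introns alone, adjusted p = 0.587, Fisher's exact test) to 9.73 (clusters of at least 40 nt, adjusted p = 0.182). That of Ptprb ranged from 2.85 (clusters less than 100 nt apart merged, exact p = 0.232) to 6.87 (at least 40 nt, exact p = 0.0401), so its unadjusted p under 0.05 did not hold on merging or in introns alone (0.117). The direction of 2 members, neither called, changed: the log2 ratio of Kdr went from 0.46 to -0.47 (introns alone) and -0.07 (merged), and that of Pecam1 from -0.14 to 0.32 (3' UTRs alone) and 0.29 (at least 40 nt).

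The counts over all genes depended on the clusters used. With 3' UTR clusters alone, 0 genes were called higher in heart than muscle (49 at an unadjusted p under 0.05, Fisher's exact test), 0 higher in muscle (71), 0 higher in heart than C2C12 (0), 1 higher in C2C12 than heart, 0 higher in muscle than C2C12 (1) and 4 higher in C2C12 than muscle. With introns alone, 33 were higher in heart than muscle, 41 in muscle than heart and 15 in C2C12 than muscle. On merging, 33 were higher in muscle than heart and 15 in C2C12 than muscle. With clusters of at least 40 nt, 3 were higher in heart than C2C12, 25 in C2C12 than heart, 2 in muscle than C2C12 and 17 in C2C12 than muscle. These alternatives test fewer clusters by construction. No paired analysis was possible because each source has 1 library.

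With 5115 clusters, C2C12 sets the weakest limit: 0 clusters there allow a share of up to 7.21 per 10000 clusters, above the share of every member in heart and muscle.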
